A study of Homo sapiens with 32 samples.

Results

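The genes of respiratory complexes II and III were followed through nascent and total RNA of human B-lymphoblastoid cell lines, which are B cells that grow permanently in culture. The members were 10 genes: SDHA, SDHB, SDHC and SDHD of complex II, and CYC1, UQCRB, UQCRC1, UQCRC2, UQCRFS1 and UQCRQ of complex III. A gene was measured where a transcript cluster, the array's group of probes for a gene, carried its symbol and no other. This held for 7 of the 10 genes, each with 1 cluster, out of 21788 clusters on the array. UQCRB shared its cluster with the symbol UQCRBP1, and SDHB and UQCRFS1 had no cluster under their own symbol, so these 3 genes were not analysed here. A second cluster that carries SDHC together with ABCC8 was not used.

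Every culture was given 200 µM 4-thiouridine (4sU), a uridine analogue that cells build into new transcripts, for 2 h. Each culture's labelled, nascent RNA and its total RNA were then put on separate exon arrays, 16 of nascent and 16 of total RNA, so that no culture lacked the label. GM10835, GM12813 and GM07029 had 3 independent cultures each, and every GM12813 culture was also hybridised to a technical duplicate array of each fraction. GM07019, GM12812, GM12814 and GM12815 had 1 culture each, which gives 13 cultures of 7 lines. The study took mRNA half-life from nascent RNA over total RNA, in which a higher ratio stands for faster turnover, and compared half-lives between the lines. Each line comes from a single donor, and the repeat cultures of 3 lines are what shows how far the values of a line vary on their own.

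Complexes II and III form the middle of the mitochondrial respiratory chain. Complex II, succinate dehydrogenase, oxidises succinate in the citric acid cycle and passes the electrons to ubiquinone in the inner membrane. Complex III takes them from reduced ubiquinone and hands them to cytochrome c while it moves protons across the membrane. All subunits of complex II, and those of complex III other than cytochrome b, are encoded in the nucleus, made in the cytosol and imported, and a cell must assemble them in fixed proportions.

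Values are log2 intensities as the authors deposited them. Array medians lay between 7.58 and 7.92 in nascent RNA and between 6.74 and 6.95 in total RNA, so the log2 nascent/total ratio of a culture was set relative to the culture's median cluster: a ratio of 0 is that of the median cluster. Background was 6.40, the 95th percentile of 216 olfactory receptor clusters, and 14167 clusters with a mean above it were tested, all 7 measured members among them. SDHD passed narrowly, with a mean of 6.45 over all arrays, and through its nascent RNA. Of 8 B cell markers 7 had a cluster, and all 7 lay above background, CD74 at 12.16 and CD79A at 10.87. Among markers of other cells, the T cell marker CD3D (4.28), the monocyte markers CD14 (5.00) and LYZ (3.81) and the epithelial marker EPCAM (3.35) lay below it. However, 2 of 8 T and NK cell, 1 of 7 monocyte and granulocyte and 4 of 8 fibroblast and epithelial genes were above background. These were CD7 (8.30), NKG7 (7.98), ELANE (7.63), KRT8 (10.69), KRT18 (7.57), COL1A1 (7.18) and COL1A2 (6.49). The epithelial marker KRT8 lay above the B cell markers BLK (9.42), CD79B (9.34), MS4A1 (10.06) and PAX5 (10.50). The number of arrays limits the precision of all values.

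Over the 7 lines, the members of each complex differed in their nascent/total ratio, a relative measure that is not a share of new RNA. Apart from SDHD, mean ratios in complex II ran from the 0.1 to the 74.8 percentile of all tested clusters. In complex III they ran from the 5.7 to the 50.2 percentile. In complex II, SDHA was higher than the median cluster and SDHC was far lower. In complex III, CYC1, UQCRC1 and UQCRC2 were lower, and UQCRQ did not pass the test. Of the 6 members whose mean lay above background in each fraction, 1 was thus higher and 4 were lower at an adjusted p under 0.05 (limma, 1 value per line, n = 7). SDHD, whose mean total value lay below background, is given apart and is not counted. This test called 62.5% of all tested clusters, 31.5% higher and 31% lower, against which the 5 of 6 members are to be read. This share, like the shares of clusters below, is over clusters filtered on their mean over both fractions. That filter is looser than the one for the 6 members. The nascent array of GM12815 had the lowest mean correlation with the arrays of its fraction, 0.919, and the 5 calls held with this or any other line left out. The median of the 6 mean ratios was -0.60, where the median cluster of each culture is at 0 by construction, and the median size of a cluster's mean ratio was 0.373.

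**Figure D1:**
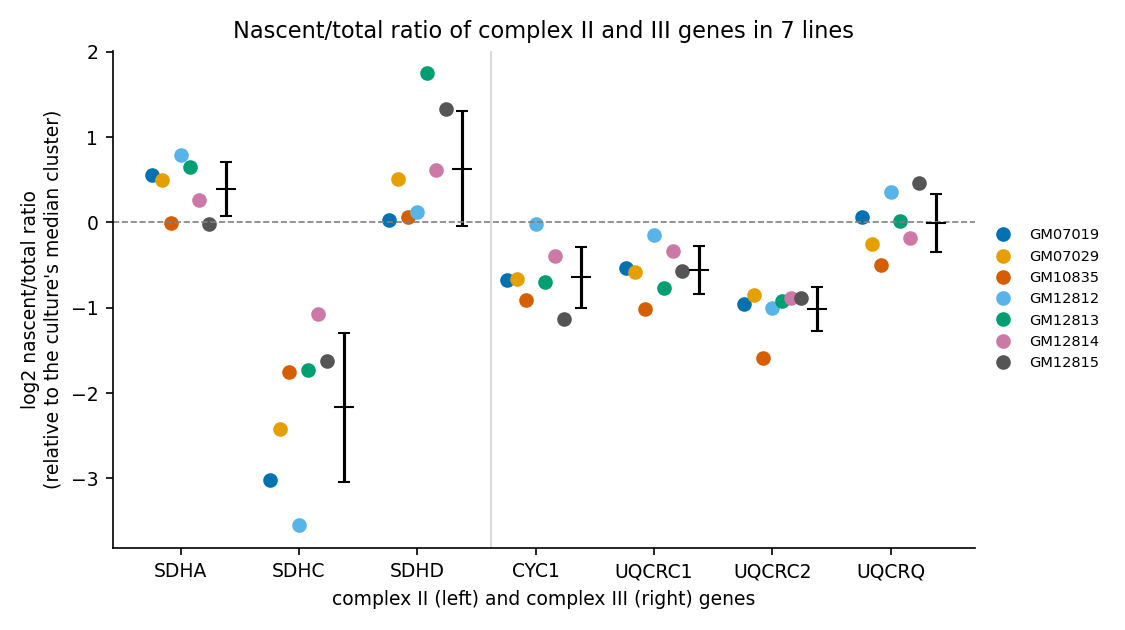
Log2 nascent/total ratio relative to the culture's median cluster (y axis) of each measured complex II and III gene (x axis), with 1 point per line (the mean of its cultures) and, to the right of the points, the mean and SD over 7 lines. SDHC lies below -1 in every line, UQCRC2 lies between -1.59 and -0.85, and UQCRQ falls on both sides of 0.

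SDHC and SDHD are the membrane anchors of complex II, which hold the heme and help form the ubiquinone site. SDHC (transcript cluster 2363618) had log2 nascent values of 6.56 in GM07019, 6.88 in GM07029, 7.62 in GM10835, 5.81 in GM12812, 7.17 in GM12813, 6.86 in GM12814 and 5.44 in GM12815. Its log2 total values were 8.91 in GM07019, 8.54 in GM07029, 8.55 in GM10835, 8.54 in GM12812, 8.10 in GM12813, 7.05 in GM12814 and 6.41 in GM12815. Nascent RNA was thus below total RNA in each line, although most clusters ran the other way. The ratio relative to the median cluster was -3.02 in GM07019, -2.42 in GM07029, -1.76 in GM10835, -3.55 in GM12812, -1.72 in GM12813, -1.07 in GM12814 and -1.62 in GM12815. It averaged -2.17 ± 0.87 (SD, n = 7 lines; limma adjusted p = 2.01e-05), by these values 4.49-fold below the median cluster and at the 0.1 percentile of all tested clusters.

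The 7 line values of the SDHC ratio also spread more than those of nearly all clusters, their SD lying at the 99.0 percentile. Between repeat cultures the SD was 0.08 in GM07029, 0.35 in GM10835 and 0.60 in GM12813. The ratio did not pass the F test between these 3 lines (limma adjusted p = 0.0897). On the nascent arrays of GM12812 and GM12815 SDHC was below background, 2 of 16 nascent arrays, and it was above background on all 16 total arrays. The ratios of GM12812 and GM12815 are therefore not exact, and with values below background set to it, an alternative added after the data were seen, the mean ratio was -1.90 (limma adjusted p = 4.65e-05). The 4 total arrays with the lowest upper quartiles, 8.13 to 8.25 against 8.32 to 8.56 on the other 12, were those of GM12814, GM12815 and GM12813 replicate 3. SDHC had log2 total values of 6.41 to 7.55 on these 4 arrays, against 8.19 to 8.91 on the other 12. The part of these arrays in the ratio of SDHC was not tested.

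SDHD (cluster 3348911) had higher nascent than total values: its log2 nascent value had a lowest, median and highest line of 5.73, 7.00 and 7.74, and its log2 total value one of 3.75, 5.50 and 6.81. Its ratio was above the median cluster's in 7 of 7 lines, from 0.03 in GM07019 through 0.13 in GM12812 to 1.33 in GM12815 and 1.75 in GM12813, with a mean of 0.63 ± 0.67 (SD, n = 7). Its fit gave a limma adjusted p of 0.0157, which is not read as a call: SDHD passed the filter through the fraction in which it is high, and 2 of 16 nascent arrays but 13 of 16 total arrays were below background. With values below background set to it, the mean ratio was -0.20 (limma adjusted p = 0.218).

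**Figure D2:**
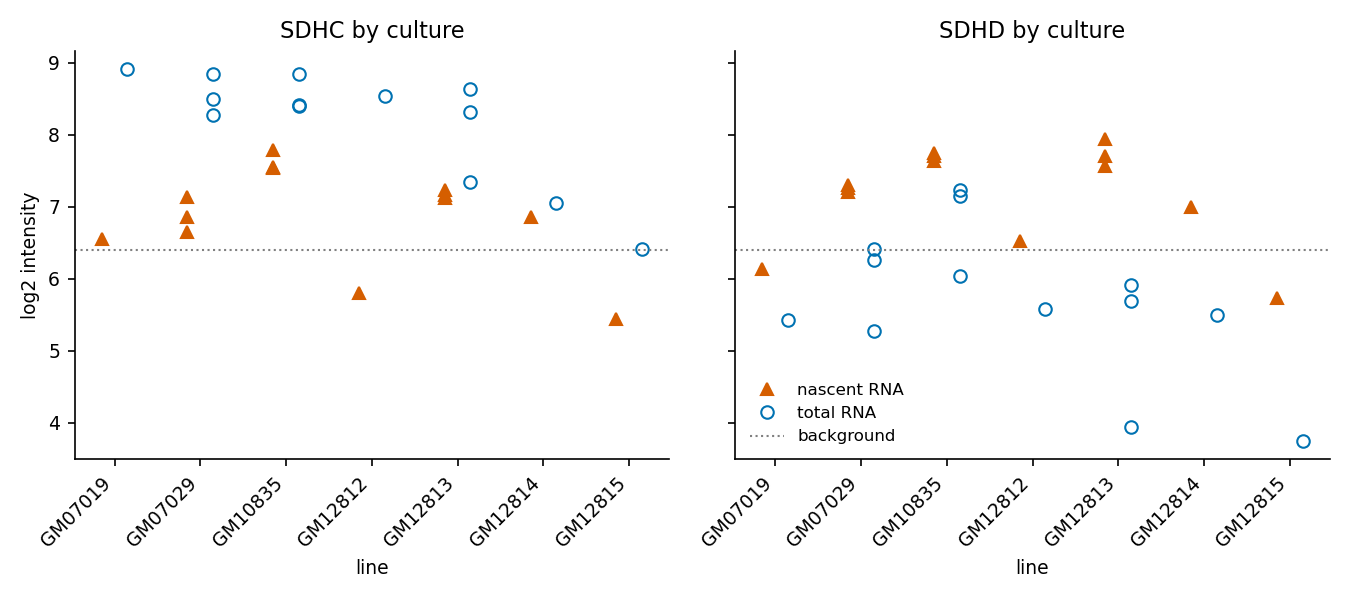
Log2 intensity (y axis) of the membrane anchor genes SDHC (left) and SDHD (right) in each culture of the 7 lines (x axis), with nascent RNA as filled triangles, total RNA as open circles and the background of 6.40 as a dotted line. Nascent values lie below total values for SDHC in all 13 cultures and above them for SDHD, whose total values are mostly under the background.

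SDHA, the flavoprotein that oxidises succinate (cluster 2798538), was strongly hybridised in both fractions, with a lowest, median and highest line of 10.86, 11.54 and 11.91 in log2 nascent RNA and of 9.79, 10.30 and 11.08 in log2 total RNA. Its ratio was 0.55 in GM07019, 0.50 in GM07029, -0.01 in GM10835, 0.80 in GM12812, 0.65 in GM12813, 0.26 in GM12814 and -0.02 in GM12815. In 5 of 7 lines it was above the median cluster, and in GM10835 and GM12815 it lay at it. The mean was 0.39 ± 0.32 (SD, n = 7; limma adjusted p = 0.0101). SDHA has close pseudogene copies, which are named on another cluster of the array, and cross-hybridisation between them was not tested.

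The difference within complex II was tested line by line, which does not depend on the centring. The ratio of SDHA exceeded that of SDHC by 2.56 ± 1.12 on the log2 scale (SD, n = 7 lines), in 7 of 7 lines (exact sign-flip permutation test over lines, adjusted over 9 pairs, p = 0.0234). The difference was 1.34 to 3.57 in the 5 lines where both genes were above background in both fractions, and 4.35 in GM12812 and 1.60 in GM12815, where nascent SDHC was not. With values below background set to it, the mean difference was 2.33 (exact permutation, adjusted p = 0.0201). The measured ratio of SDHD was above that of SDHC by 2.80 ± 0.77 and above that of SDHA by 0.24 ± 0.76 (SD, n = 7), values that rest on total SDHD below background on 13 of 16 arrays. Set to background, they were 1.69 and -0.64. The floor gives SDHD the same total value on these 13 arrays and so largely sets these differences. No order of SDHD and SDHA is read from them.

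In complex III the clearest ratio was that of UQCRC2, a core protein of the matrix side (cluster 3652218). Its lowest, median and highest line had log2 values of 10.50, 10.88 and 11.12 in nascent RNA and of 10.74, 11.02 and 11.87 in total RNA. The ratio was -1.59 in GM10835 and between -0.998 and -0.85 in the other 6 lines, so that GM10835 stood apart. The mean was -1.01 ± 0.26 (SD, n = 7; limma adjusted p = 4.75e-06). UQCRC1, the partner core protein (cluster 2673509), had a lowest, median and highest line of 8.56, 9.09 and 9.36 in log2 nascent RNA and of 8.49, 8.70 and 9.54 in log2 total RNA. Its ratio averaged -0.56 ± 0.28, with a lowest, median and highest line of -1.01, -0.57 and -0.15 (limma adjusted p = 0.000686), and was negative in every line.

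CYC1 is cytochrome c1, the heme protein that delivers electrons to cytochrome c (cluster 3120051). Its log2 values had a lowest, median and highest line of 9.22, 10.21 and 10.59 in nascent RNA and of 9.46, 9.84 and 10.65 in total RNA. Its ratio averaged -0.64 ± 0.36 and ran from -1.14 in GM12815 through a median of -0.68 to -0.02 in GM12812 (limma adjusted p = 0.000802). The ratio was negative in all 7 lines, though GM12812 lay at the median cluster. UQCRQ, a small subunit (cluster 2828787), had a lowest, median and highest line of 8.31, 8.79 and 9.64 in log2 nascent RNA and of 7.20, 7.97 and 9.32 in log2 total RNA. Its ratio of -0.01 ± 0.34 was positive in 4 lines and negative in 3, from -0.50 in GM10835 to 0.46 in GM12815 (limma adjusted p = 0.970).

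The sign of CYC1, UQCRC1 and UQCRQ is relative to the median cluster: without centring, their mean log2 ratios were 0.13, 0.21 and 0.77, whereas those of SDHC and UQCRC2 were -1.39 and -0.24 and stayed negative. Pairs within the complex do not depend on this. The ratio of UQCRQ exceeded those of UQCRC2 by 1.01 ± 0.29, CYC1 by 0.64 ± 0.47 and UQCRC1 by 0.56 ± 0.29 in 7 of 7 lines (exact permutation, adjusted p = 0.0234 each). UQCRC1 exceeded UQCRC2 by 0.45 ± 0.23 in 7 of 7 lines (exact permutation, adjusted p = 0.0234). UQCRC1 minus CYC1 was 0.08 ± 0.24, positive in 4 of 7 lines, and did not pass (exact permutation, adjusted p = 0.531). CYC1 minus UQCRC2 was 0.37 ± 0.39, positive in 6 of 7 lines, and did not pass either (exact permutation, adjusted p = 0.0804). With the trend of the ratio on signal removed, the difference of UQCRQ from CYC1 was 0.39 (exact permutation, adjusted p = 0.169) and that of UQCRC1 from UQCRC2 was 0.08 (adjusted p = 0.545), so these 2 of the 4 complex III pairs depend on it.

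The 5′ ends of the genes were looked at for short motifs of factors known for nuclear genes of mitochondrial proteins. RefSeq promoter windows (GRCh38.p14, 250 bases before to 50 after the start) were on hand for 5 of the 7 measured members, SDHA, SDHD, UQCRC1, UQCRC2 and UQCRQ. Searched on both strands were the core of the NRF1 site (CGCATGCG), of ETS factors (CCGGAAG) and of YY1 (ATGGCGGC). The pieces below show the matches upstream of the start, in capitals, in SDHD and UQCRQ, the members in which a match lay there.
SDHD, NRF1 core, 109 bases upstream, chr11:112086753-112086782, plus strand: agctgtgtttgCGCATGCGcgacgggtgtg
SDHD, ETS core on the opposite strand, 77 bases upstream, chr11:112086785-112086814, plus strand: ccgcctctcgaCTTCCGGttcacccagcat
UQCRQ, ETS core, 54 bases upstream, chr5:132866577-132866606, plus strand: aatggtatctcCCGGAAGttacctcacgac
The NRF1 core was in 1 of 5 members' windows and in 2.02% of all 35116 windows, the ETS core in 2 of 5 and in 10.3%, and the YY1 core in 1 of 5, that of UQCRC1, and in 3.0%. These motifs do not overlap one another in SDHD. A match describes the letters of the window and does not show that a factor binds there.

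Levels were then compared between the 3 lines with repeat cultures (limma moderated F test, 3 cultures each, technical duplicates averaged). GM10835 had more total RNA than either other line for SDHA and the 4 complex III members, and more nascent RNA for SDHA, SDHC, CYC1, UQCRC1 and UQCRQ. Of the 6 members above background in each fraction, 6 differed between the lines in nascent RNA, where 56.7% of all clusters did. In total RNA 5 of them differed, where 56.3% did. SDHD also passed in both fractions, but its total RNA was below background on 13 of 16 arrays and it is not counted. GM12812, with 1 culture, was outside this comparison. Its log2 nascent values were 11.91 for SDHA, 10.59 for CYC1 and 9.36 for UQCRC1, beside GM10835 means of 11.90, 10.58 and 9.36. Its nascent SDHC (5.81) and UQCRQ (8.76) lay below the GM10835 means of 7.62 and 9.64. In bulk RNA, fewer cells of a kind and less RNA per cell cannot be told apart.

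Succinate dehydrogenase's SDHA had log2 total values of 11.08, 11.16 and 10.99 in the GM10835 cultures, against 10.04, 9.63 and 9.77 in GM12813 and 9.97, 9.50 and 9.90 in GM07029. The GM10835 cultures did not overlap those of either other line. Total SDHA was higher in GM10835 by 1.26 than in GM12813 and by 1.28 than in GM07029 on the log2 scale (SE 0.145; limma adjusted p = 5.78e-05 and 4.61e-05). In nascent RNA SDHA averaged 11.90 ± 0.08 in GM10835, against 11.26 ± 0.04 in GM12813 and 11.06 ± 0.13 in GM07029 (SD, n = 3 each; limma adjusted p of the F test 7.51e-06).

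UQCRQ showed the widest gap in total RNA among the members with signal above background, with 9.59, 9.24 and 9.12 in GM10835 cultures, against 8.15, 8.19 and 7.56 in GM12813 and 7.94, 7.62 and 8.20 in GM07029. It was higher in GM10835 by 1.35 than in GM12813 and by 1.39 than in GM07029 (limma adjusted p = 0.000303 and 0.000212). Its nascent RNA was 9.65, 9.66 and 9.63 in GM10835, against 8.87, 8.76 and 8.72 in GM12813 and 8.62, 8.52 and 8.17 in GM07029, again without overlap. Nascent UQCRQ was the member on which the GM10835 cultures lay closest together, with an SD of 0.01.

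CYC1 averaged 10.65 ± 0.09 in total RNA of GM10835, against 9.84 ± 0.26 in GM12813 and 9.46 ± 0.10 in GM07029 (SD, n = 3 each; limma adjusted p of the F test 8.90e-05). Its nascent RNA averaged 10.58 ± 0.04 in GM10835, against 9.94 ± 0.05 in GM12813 and 9.56 ± 0.14 in GM07029 (limma adjusted p = 4.22e-06). UQCRC1 averaged 9.54 ± 0.09 in total RNA of GM10835, against 8.88 ± 0.13 in GM12813 and 8.53 ± 0.19 in GM07029 (limma adjusted p = 0.000158). Its nascent RNA averaged 9.36 ± 0.09 in GM10835, against 8.91 ± 0.06 in GM12813 and 8.71 ± 0.11 in GM07029 (limma adjusted p = 0.000154). Among the 3 replicated lines, both genes thus had their highest mean in GM10835 and their lowest in GM07029 in both fractions. Of the differences between GM12813 and GM07029, however, that of nascent CYC1, 0.38, passed (limma adjusted p = 0.00602), whereas total CYC1 (0.0570), total UQCRC1 (0.0585) and nascent UQCRC1 (0.126) did not.

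UQCRC2 differed from them: its total RNA was high in GM10835, but its nascent line means lay within 0.220 of each other (limma adjusted p of the F test 0.0164, and 0.0996 or 0.0834 without GM12813 replicate 2 or 3). The log2 total values were 11.85, 11.80 and 11.98 in GM10835, against 11.21, 11.01 and 10.83 in GM12813 and 10.97, 11.16 and 11.39 in GM07029, with no overlap (adjusted p of the F test 0.000426, limma). Nascent UQCRC2 was 11.15, 11.10 and 11.10 in GM10835, against 10.997, 10.84 and 10.86 in GM12813 and 11.14, 11.04 and 11.07 in GM07029. Between GM10835 and GM07029 the nascent difference was 0.03 (limma adjusted p = 0.675). GM10835 exceeded GM12813 by 0.22 (limma adjusted p = 0.0119), which was 0.19 (adjusted p = 0.0631) without GM12813 replicate 2, 0.20 (0.0531) without its replicate 3 and 0.03 (0.716) with arrays centred on their medians.

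The anchor genes followed neither pattern. SDHC in total RNA was 8.41, 8.40 and 8.85 in GM10835, against 8.64, 8.31 and 7.34 in GM12813 and 8.84, 8.27 and 8.50 in GM07029, and was the member that did not pass the F test there (limma adjusted p = 0.291). In nascent RNA it was 7.78, 7.55 and 7.53 in GM10835, against 7.23, 7.12 and 7.17 in GM12813 and 7.13, 6.66 and 6.86 in GM07029, and the GM10835 cultures lay above all others (limma adjusted p = 0.00110). SDHD in nascent RNA averaged 7.70 ± 0.06 in GM10835, against 7.74 ± 0.20 in GM12813 and 7.26 ± 0.05 in GM07029 (limma adjusted p = 0.00332), and GM07029 lay below both other lines. With arrays centred on their medians, GM10835 exceeded GM07029 by 0.19 (limma adjusted p = 0.167). Its total RNA averaged 6.81 ± 0.67 in GM10835, against 5.19 ± 1.08 in GM12813 and 5.99 ± 0.62 in GM07029 (limma adjusted p = 0.0474), mostly under the background. This call ended, at adjusted p-values of 0.0581 to 0.131, without GM07029 replicate 2 or 3, GM10835 replicate 1 or 3, or GM12813 replicate 3.

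**Figure D3:**
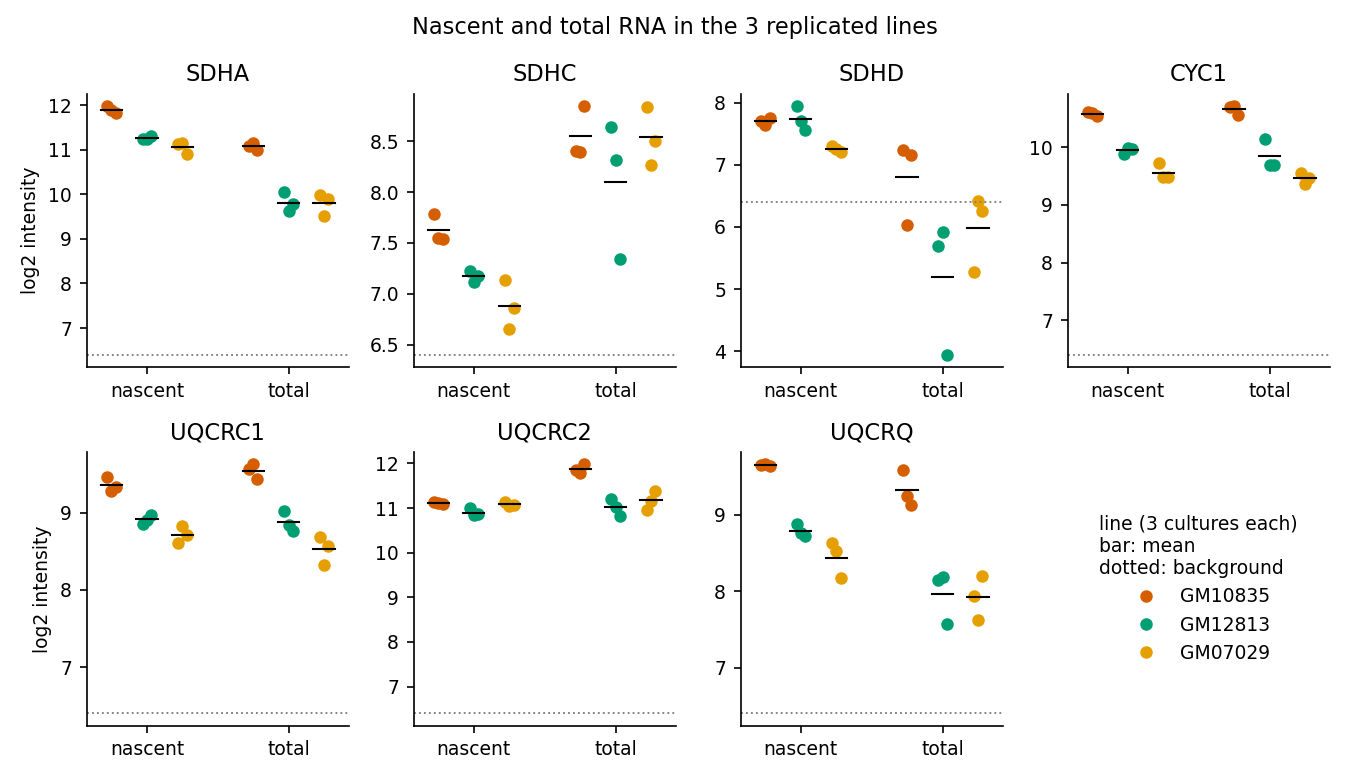
Log2 intensity (y axis, a range of its own in each panel) of each member in nascent and total RNA (x axis) of GM10835, GM12813 and GM07029, with 1 point per culture, bars at the means of 3 cultures and the background dotted. The GM10835 cultures lie above the others in both fractions for SDHA, CYC1, UQCRC1 and UQCRQ, and in total RNA alone for UQCRC2.

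The contrasts below were read for the 6 members above background in each fraction, and SDHD is not counted. By limma's contrasts, GM10835 was higher than both other lines in nascent RNA for 5 of the 6, SDHA, SDHC, CYC1, UQCRC1 and UQCRQ, where 29.1% of all clusters were. In total RNA it was higher than both for 5 of the 6, SDHA, CYC1, UQCRC1, UQCRC2 and UQCRQ, where 18.3% of all clusters were. The median over the 7 members of the range of line means was 0.741 in nascent RNA and 1.20 in total RNA, against 0.347 and 0.447 over all clusters. These medians include SDHD, whose total values were mostly below background. The 3 nascent arrays of GM10835 had the highest medians of their fraction, 7.89 to 7.92. The 3 total arrays of GM10835 had the lowest mean correlations with the arrays of their fraction, 0.927, 0.926 and 0.930. Those of the other total arrays were 0.934 to 0.961. Whether this bears on the total RNA differences was not tested. With arrays centred on their medians the nascent count was 3, as SDHC and UQCRC1 no longer passed against GM12813, and the total count was 5.

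Genes of the other complexes of oxidative phosphorylation, in which protons moved by the chain drive ATP synthase, were counted in the same way. In nascent RNA GM10835 was higher than both lines for 20 of 26 complex I, 7 of 11 complex IV and 4 of 11 ATP synthase genes, beside 29.1% of all clusters. With arrays centred on their medians these nascent counts were 9 of 26, 6 of 11 and 0 of 11 (for ATP synthase, 1 at an unadjusted p under 0.05, limma), beside 13.9% of all clusters. In total RNA GM10835 was higher than both for 22 of 26 complex I, 8 of 11 complex IV and 10 of 11 ATP synthase genes, beside 18.3% of all clusters, and with arrays centred for 22, 8 and 9 of them, beside 15.7%. Among the members, total RNA was higher for 4 of 4 complex III genes and, in complex II, for SDHA but not for SDHC. SDHD, with 13 of 16 total arrays below background, is not counted. No difference between the complexes was tested.

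**Figure D4:**
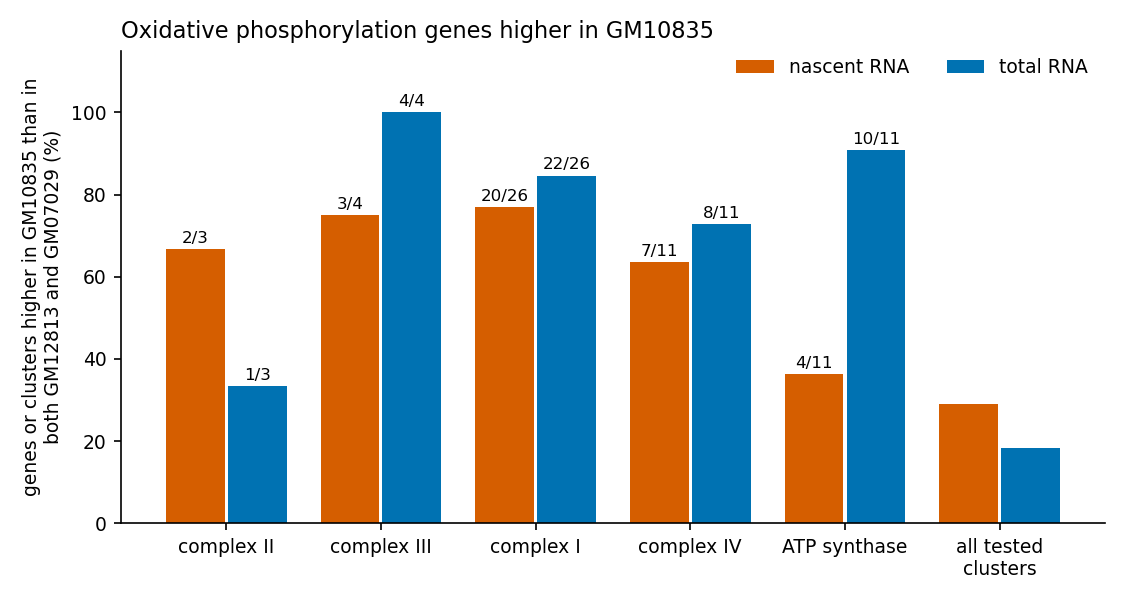
Share of genes (y axis, percent) higher in GM10835 than in both GM12813 and GM07029 in nascent and total RNA, for the members of complexes II and III, the other complexes and all tested clusters (x axis), with the number of genes over each bar. In total RNA 4 of 4 complex III members and 1 of 3 complex II members were higher, and 18.3% of all clusters were. The 3 complex II members include SDHD, whose total values were mostly below background.

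In the ratio, 2 of the 6 members above background in each fraction differed between the 3 lines, UQCRC2 and SDHA, where 28.2% of all clusters did. SDHD also passed, but with 13 of 16 total arrays below background it is not counted. UQCRC2 had ratios of -1.52, -1.54 and -1.70 in GM10835, against -0.96, -0.96 and -0.85 in GM12813 and -0.63, -0.89 and -1.04 in GM07029. All GM10835 cultures lay below all others, with log2 differences of -0.66 from GM12813 and -0.73 from GM07029 (limma adjusted p = 0.00150 and 0.00218; F test, adjusted p = 0.00132). The ratio of SDHA was 0.08, -0.13 and 0.01 in GM10835, against 0.46, 0.83 and 0.66 in GM12813 and 0.34, 0.88 and 0.28 in GM07029, again without overlap (limma adjusted p of the F test 0.0178). It lost the call without GM10835 replicate 2 (adjusted p = 0.0699) or replicate 3 (0.0557) and with the trend on signal removed (0.225). The call was also lost without a filter (0.0625) and by the ordinary F test (0.0944). GM10835 differed by -0.66 from GM12813 and by -0.51 from GM07029 (limma adjusted p = 0.00945 and 0.0432). The difference from GM07029 did not pass in several settings, among them quantile normalization (0.0795) and first arrays (0.0758).

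The ratio of SDHD was -0.35, 0.76 and -0.22 in GM10835, against 1.505, 1.004 and 2.74 in GM12813 and 1.23, 0.07 and 0.22 in GM07029 (limma adjusted p of the F test 0.0311). The highest value belongs to GM12813 replicate 3, whose duplicate total arrays differed by 1.69 for this gene, and without that culture the adjusted p was 0.103. Leaving out GM10835 replicate 1 (adjusted p = 0.0739), GM10835 replicate 3 (0.0748) or GM12813 replicate 1 (0.0572) also ended the call. CYC1 (limma adjusted p = 0.275), UQCRC1 (0.116), UQCRQ (0.186) and SDHC (0.0897) did not pass, and no member had a higher mean ratio in GM10835 than in both other lines, a pattern called for 4.81% of all clusters. Without GM07029 replicate 1, UQCRC1 passed with a range of 0.587 (adjusted p = 0.0246).

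Genes that work beside these complexes were read from 3 lists, the other complex III subunits, assembly factors of both complexes, and enzymes and carriers that make or use ubiquinone and cytochrome c. Of 28 tested genes, 4 had a higher and 13 a lower ratio over the 7 lines than the median cluster, with a median of -0.30, beside the 31.5% and 31% of all clusters. HCCS, the lyase that attaches heme to cytochrome c and to CYC1, had the highest ratio, 1.48 ± 0.23 (SD, n = 7; limma adjusted p = 2.89e-07). That of CYC1 was -0.64 ± 0.36, a sign that depends on the centring. COQ8B, which acts in ubiquinone synthesis, followed with 0.54 ± 0.24 (limma adjusted p = 0.000376), and ETFDH, which feeds electrons from fatty acid oxidation to ubiquinone, with 0.43 ± 0.33 (0.00554). The lowest were SQOR, the sulfide oxidase that reduces ubiquinone, at -1.05 ± 0.27 (5.01e-06), LYRM7, a chaperone of the complex III iron-sulfur protein, at -1.04 ± 0.36 (2.28e-05), and SDHAF4, an assembly factor that binds SDHA, at -0.92 ± 0.21 (4.79e-06).

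By list, 5 of 8 assembly factors were lower, with a median of -0.55. Of 18 ubiquinone and cytochrome c partners 4 were higher and 7 lower, with a median of -0.13. Of the other complex III subunits UQCR10 was lower at -0.40 (limma adjusted p = 0.0206), and UQCR11 at -0.25 did not pass (0.138). The other complexes gave 5 higher and 10 lower of 26 in complex I (median -0.40), 2 and 6 of 11 in complex IV (median -0.76) and 1 and 7 of 11 in ATP synthase (median -0.46). All these counts stand beside 31.5% higher and 31% lower over all clusters.

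SDHD had the widest range of ratio between the 3 replicated lines, and the genes whose 7 line ratios ran most like it were ZNF121, ACBD6, EXOSC8, GLMN and THEM4. Their mean absolute difference from the deviations of SDHD was 0.218 to 0.256 on the log2 scale, and the pattern they match rests on total SDHD values mostly below background. For SDHC, taken after its values were seen, they were ING2, PLEKHA3, G2E3, SNRNP48 and ATAD2B, at 0.190 to 0.336. These genes were picked as the nearest of all named clusters, so that small differences are given by the choice. The 7 points of each gene share their cultures and arrays, so likeness can come from an array as well as from a line.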

How the data were processed

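Values were the authors' deposited log2 intensities of 21788 transcript clusters on 32 exon arrays. Per the submitters' processing notes, Affymetrix Power Tools and hg18 were used. The sources used here do not give the summary algorithm or normalization. Ribosomal RNA was reduced before cDNA synthesis, per the labels' protocols. Gene symbols came from the platform table, where 14405 clusters had 1 symbol, 2365 several and 5018 none. Technical duplicates were averaged, the nascent minus total log2 ratio was centred on each culture's median over the 14167 tested clusters (65.0%), and cultures were averaged per line. Ratios were tested against 0 over 7 lines, and ratio, total and nascent values between 3 lines, with limma 3.58.1 in R 4.3.3 (lmFit, eBayes with trend, two-sided; Benjamini-Hochberg over all tested clusters; threshold 0.05). GM10835 counts as higher than both other lines where both contrasts passed. Differences between members of a complex were tested by exact two-sided sign-flip permutation over lines, 9 pairs, smallest unadjusted p 0.0156; pairs with SDHB, UQCRB or UQCRFS1 were not analysed here. Scripts were tested on simulated data. Members and lists were chosen with earlier results of these data known. Named were all members, the 3 highest and 3 lowest called genes of the partner lists, and the 5 genes nearest to the member of widest range. Alternatives covered centring, quantile normalization, filters, signal trend, first arrays, blocks, an ordinary F test and left-out lines or cultures; replicate numbers did not pair cultures (correlations of deviations from -0.459 to 0.392).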

Additional observations from a re-analysis of the deposited data

Results flagged for a closer look

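Among the 7 lines, GM10835 stood apart from the others for UQCRC2, with a log2 total value of 11.87 where the nearest line had 11.17, and with a ratio of -1.59 where the nearest line had -0.998. Of 21 sets of 7 line values looked at in this way, 2 gave such a line, and chance gives about 1 in 20 for separate sets. The sets are not separate, as each ratio is taken from the nascent and total values of the same gene. Both sets found hold the same high total value of UQCRC2 in GM10835. The nascent value of UQCRC2 gave none.

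The nascent/total ratio differed between GM10835, GM12813 and GM07029 for 3 members by limma's moderated F test. The range of line means was 0.735 for UQCRC2 (adjusted p = 0.00132), 0.658 for SDHA (adjusted p = 0.0178) and 1.69 for SDHD (adjusted p = 0.0311). For SDHD the total values were below background on 13 of 16 arrays, so its call is not read as a result.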

How the results depend on the processing

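Over 7 lines, SDHA, SDHC and UQCRC2 kept direction and call in all 15 settings, SDHC between -2.35 and -1.39. UQCRQ, at -0.01, changed sign with quantile normalization (0.0265), no filter (0.0094), both fractions above background (0.0373), first arrays (0.0108), the floor at background (0.0414) and left-out lines (-0.0839 to 0.0767). Without centring UQCRQ was 0.77, CYC1 0.13 and UQCRC1 0.21. With the floor, added after the data were seen, SDHD was -0.20 and SDHD minus SDHA -0.64. The floor gives most total SDHD values the same number, so these values are largely set by it. With the trend on signal removed, SDHD minus SDHA was -0.21 and UQCRC1 minus CYC1 -0.10. With 13 cultures and the line as a random block, SDHD had an adjusted p of 0.0544.

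Between 3 lines, the ratio was called for 3 members, SDHD included, and 4001 clusters. It was called for 1 member without a filter (2616 clusters), with the trend removed or by the ordinary F test (2279 clusters). First arrays gave 2437 clusters, and leaving out a culture 1 to 4 members and 2286 to 5239 clusters. GM10835 was above both lines in nascent RNA for 3 members with arrays centred; in total RNA it was above both for 5 in every setting. With the replicate number as a block (replicate block), 3 members and 3245 clusters were called in the ratio and 5 members in total RNA, SDHD having an adjusted p of 0.0673. No member has several clusters, so averaging them gave no value, and SDHD has none under both fractions above background. The cause of these changes was not tested. Signal limits SDHD in total RNA and SDHC in nascent RNA of GM12812 and GM12815.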
